A study of Mus musculus with 9 samples.

Results

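Macrophages and monocytes are the cells that T cell purification from spleen is meant to remove, and transcripts of 10 of their marker genes were looked for by symbol in RNA-seq of purified T cells. The 10 symbols are textbook markers, chosen with earlier results of these data known: Csf1r, Lyz2, Cd68, Adgre1, Mpeg1, Spi1, Fcgr3, Cybb, Cd14 and Ctss. The deposited sample table, which holds 2889 genes, listed 7 of them, and Cd68, Mpeg1 and Ctss are not analysed here. CD3+ T cells came by negative selection from spleens of 3 wild-type (WT) C57BL/6 mice, and cells of each mouse were kept for 4 h in adipocyte conditioned medium, in stromal cell conditioned medium or in unconditioned RPMI medium. That gave 9 samples, 3 per medium, with replicates 1, 2 and 3 of every medium coming from mice 1, 2 and 3. All groups share the strain, genotype, purification and time, and neither the age of the mice nor the origin of the cells that conditioned the media is stated in the labels. The series concerns the T cell niche, and the marker genes bear on which other cells were in the samples.

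Macrophages and monocytes depend on colony stimulating factor 1, which signals through the receptor encoded by Csf1r, and on the transcription factor PU.1, encoded by Spi1. They engulf and kill microbes with lysozyme, with the phagocyte NADPH oxidase and through receptors for antibody and for bacterial products. In spleen, red pulp macrophages clear old red blood cells, and monocytes are held there as a reservoir. Several of these genes are also active in other blood cells: PU.1 in B cells and granulocytes, the oxidase in neutrophils and B cells, and the Fc receptor in natural killer cells. In bulk samples fewer cells of a type and less RNA per cell cannot be told apart.

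The values are normalized counts, the authors' read counts divided by a size factor per sample, and they are not per length, so they are compared between samples and not between genes. Recovered reads on the listed genes summed to 6522742 to 13758643 per sample, which is not the whole depth. The authors' tables of changed genes hold 3220 genes for adipocyte and 602 for stromal medium, and no gene of the sample table is outside them, so all genes had been selected on these samples. Of the 7 markers, 6 were in the adipocyte table and 1, Cd14, in the stromal table, and the tests below are therefore not independent evidence that a marker changed. Because only selected genes are listed, the presence or absence of a T cell marker cannot check the T cell label. Of 20 such markers 5 were listed: Cd3e, Cd3g, Cd8a, Cd8b1 and Bcl11b. Their summed level was 42462 to 44070 in adipocyte, 88751 to 91890 in stromal and 103410 to 115370 normalized counts in unconditioned medium.

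Promoter sequence from RefSeq (GRCm38.p6, 250 bases before to 50 after the transcript start) was at hand for 3 of the 7 markers, Lyz2, Cybb and Fcgr3. Lyz2 is shown with its neighbour Lyz1, a near-identical lysozyme gene. Capitals mark the longest stretch the pair shares, 86 bases, 50 before and 36 after the start. Lyz2 is at chr10:117282223-117282522 and Lyz1 at chr10:117292819-117293118, both on the minus strand.
Lyz2: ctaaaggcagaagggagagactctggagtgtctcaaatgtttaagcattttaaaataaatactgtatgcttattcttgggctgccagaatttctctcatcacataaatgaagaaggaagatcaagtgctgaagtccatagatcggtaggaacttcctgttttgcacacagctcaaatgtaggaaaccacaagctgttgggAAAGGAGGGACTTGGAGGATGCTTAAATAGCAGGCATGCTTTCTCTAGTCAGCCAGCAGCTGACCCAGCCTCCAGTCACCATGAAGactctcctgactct
Lyz1: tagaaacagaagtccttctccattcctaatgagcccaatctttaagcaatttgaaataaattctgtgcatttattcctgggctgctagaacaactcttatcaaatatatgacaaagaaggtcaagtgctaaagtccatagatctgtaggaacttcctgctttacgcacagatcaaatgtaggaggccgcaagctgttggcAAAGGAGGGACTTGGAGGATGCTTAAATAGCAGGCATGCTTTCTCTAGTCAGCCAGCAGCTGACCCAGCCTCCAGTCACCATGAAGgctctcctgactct
The transcripts of the pair are identical at 1211 of 1262 aligned bases (96.0%, GENCODE M21), so counting may split their reads, and both values are uncertain to that extent. For Cybb (chrX:9469275-9469574, minus strand) and Fcgr3 (chr1:171059354-171059653, minus strand, the first of 2 overlapping windows), capitals mark the core of the motif that PU.1 binds, GAGGAA, searched on both strands and found here as its reverse complement TTCCTC. They are shown because the gene for PU.1, Spi1, is itself 1 of the markers.
Cybb: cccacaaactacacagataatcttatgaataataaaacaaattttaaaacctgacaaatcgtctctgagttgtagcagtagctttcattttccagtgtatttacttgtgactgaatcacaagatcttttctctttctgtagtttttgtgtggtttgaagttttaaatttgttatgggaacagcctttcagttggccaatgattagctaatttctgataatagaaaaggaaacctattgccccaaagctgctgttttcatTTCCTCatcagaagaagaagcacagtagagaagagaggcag
Fcgr3: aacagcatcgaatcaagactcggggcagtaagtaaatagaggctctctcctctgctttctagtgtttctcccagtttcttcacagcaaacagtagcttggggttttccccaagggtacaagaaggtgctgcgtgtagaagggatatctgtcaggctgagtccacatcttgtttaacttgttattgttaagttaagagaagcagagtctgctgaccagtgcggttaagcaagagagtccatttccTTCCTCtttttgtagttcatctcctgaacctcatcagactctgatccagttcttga
The motif was found once in each of these windows and in neither lysozyme window. It is in 28.3% of 32851 promoters of the same length and in 26.6% of the 2907 promoters of tested genes.

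The series sets each conditioned medium against unconditioned medium to find transcripts that respond to it. In adipocyte medium 6 of the 7 markers were lower than in unconditioned medium, and in each of them all 3 adipocyte samples lay below all 3 unconditioned samples. Of these, Lyz2 and Csf1r fell most, Adgre1 fell less, and Spi1, Cybb and Fcgr3 fell by amounts closer to the general shift of the listed genes. Cd14 did not pass the test. Tests are limma-trend on log2(normalized count + 1) over the 2868 genes whose mean was 1 or more, with two-sided Benjamini-Hochberg adjusted p-values and a threshold of 0.05. All 7 markers passed that filter. On the same rule 97.2% of tested genes were called, 63.4% lower and 33.8% higher, and 63.4% were lower and 33.6% higher without overlap between the groups. The markers' median log2 fold change was -1.53, against -1.03 over all genes tested.

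**Figure D1:**
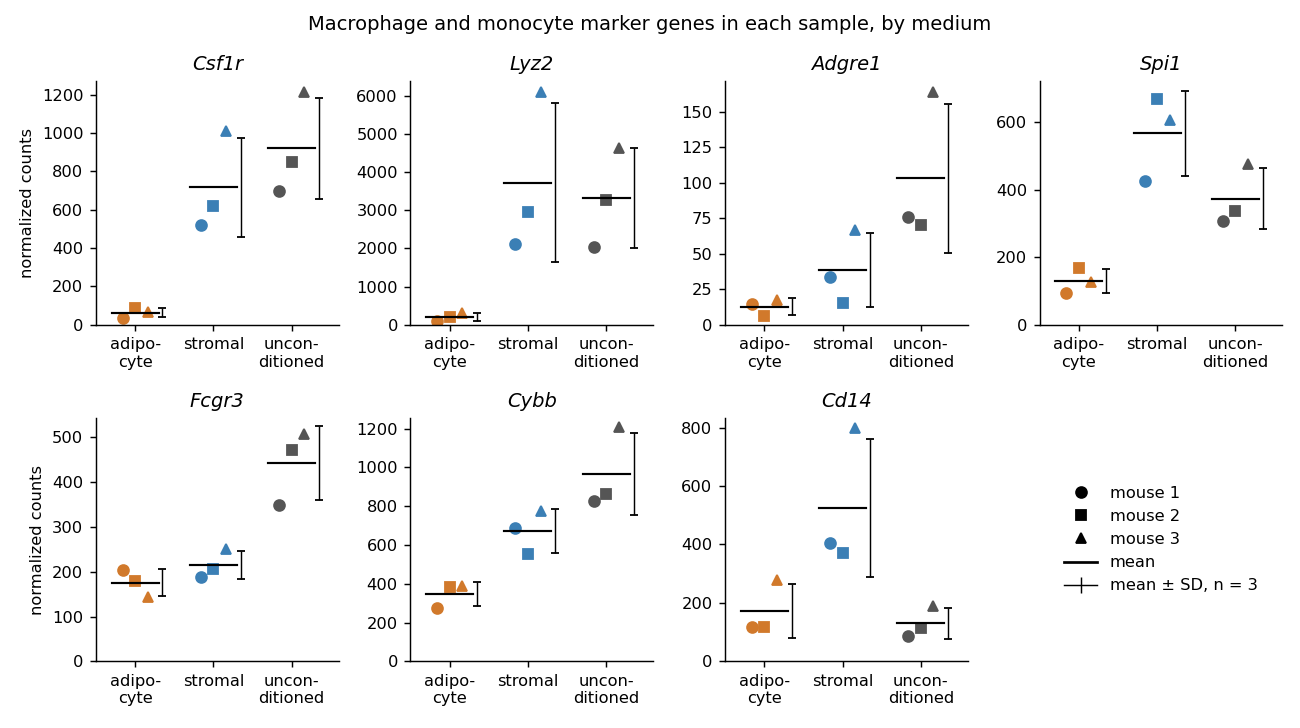
Normalized counts of the 7 listed macrophage and monocyte marker genes in the adipocyte, stromal and unconditioned samples, 1 panel per gene, 1 point per sample with the mouse shown by the symbol, the group mean as a line and the mean ± SD (n = 3) as a bar at its right. The adipocyte samples of Csf1r and Lyz2 lie far below the others, those of Cd14 overlap the unconditioned ones, and mouse 3 is the highest unconditioned sample in all 7 panels.

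Csf1r (ENSMUSG00000024621), the receptor on which the macrophage lineage depends, was at 37.4, 86.4 and 66.4 normalized counts in adipocyte medium in mice 1, 2 and 3, at 520, 621 and 1008 in stromal medium, and at 697, 850 and 1213 in unconditioned medium. The adipocyte samples stood apart from all others, while stromal and unconditioned samples overlapped. The means were 63.4 ± 24.6, 716 ± 258 and 920 ± 265 in that order (SD, n = 3 each). Csf1r thus had a log2 fold change of -3.88 against unconditioned medium (SE 0.32, adjusted p = 1.63e-07). Within a mouse, the adipocyte sample held 5.36%, 10.2% and 5.48% of the unconditioned level. The adipocyte values rest on 26, 96 and 68 reads.

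Spi1 (ENSMUSG00000002111), whose product PU.1 drives Csf1r and much of the myeloid program, was at 94.9, 167 and 126 in adipocyte medium, at 427, 669 and 606 in stromal medium, and at 307, 338 and 477 in unconditioned medium. The adipocyte samples were the lowest of all, and 2 of the 3 stromal samples were above every unconditioned sample. Its log2 fold change in adipocyte against unconditioned medium was -1.53 (SE 0.24, adjusted p = 4.67e-05), with 30.9%, 49.5% and 26.4% of the unconditioned level in mice 1, 2 and 3. Spi1 therefore kept a larger part of its unconditioned level than Csf1r in each of the 3 mice.

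Lyz2 (ENSMUSG00000069516) encodes the lysozyme of macrophages, monocytes and neutrophils. It was at 101, 214 and 316 in adipocyte medium, at 2123, 2965 and 6088 in stromal medium, and at 2024, 3280 and 4639 in unconditioned medium. Stromal and unconditioned samples overlapped, and every adipocyte sample was below them. The log2 fold change in adipocyte against unconditioned medium was -4.04 (SE 0.44, adjusted p = 1.51e-06), the 21st lowest of 2868 genes, and Csf1r was the 29th lowest. The paralog Lyz1 (ENSMUSG00000069515), known from Paneth cells of the gut, was at 4.31, 4.50 and 13.7 in adipocyte, 56.8, 95.6 and 178 in stromal and 51.4, 79.1 and 159 in unconditioned medium. In adipocyte against unconditioned medium it fell by 3.54 on the log2 scale (SE 0.54, adjusted p = 3.31e-05), and its ratio to Lyz2 was between 0.021 and 0.043 in all 9 samples.

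Adgre1 (ENSMUSG00000004730) encodes F4/80, the surface protein by which mouse macrophages are stained. It was at 14.4, 6.30 and 17.6 in adipocyte medium, at 33.4, 15.2 and 67.1 in stromal medium, and at 75.7, 70.4 and 164 in unconditioned medium. Both conditioned media lay below unconditioned medium without overlap, and the adipocyte and stromal samples overlapped. The log2 fold change in adipocyte against unconditioned medium was -2.92 (SE 0.55, adjusted p = 0.000198). The adipocyte values rest on 10, 7 and 18 reads.

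Cybb (ENSMUSG00000015340) encodes gp91phox, the catalytic subunit of the phagocyte oxidase. It was at 276, 382 and 387 in adipocyte medium, at 689, 551 and 777 in stromal medium, and at 827, 863 and 1209 in unconditioned medium, so the 3 media did not overlap at all. Its log2 fold change in adipocyte against unconditioned medium was -1.46 (SE 0.19, adjusted p = 6.63e-06). Fcgr3 (ENSMUSG00000059498), a low-affinity receptor for antibody, was at 204, 180 and 144 in adipocyte medium, at 188, 207 and 250 in stromal medium, and at 350, 471 and 507 in unconditioned medium. Here both conditioned media were low and overlapped each other. Fcgr3 was at -1.32 in adipocyte against unconditioned medium (SE 0.20, adjusted p = 2.58e-05).

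Cd14 (ENSMUSG00000051439), the co-receptor that hands bacterial lipopolysaccharide to Toll-like receptor 4, had a different profile. It was at 118, 118 and 277 in adipocyte medium, at 406, 370 and 797 in stromal medium, and at 87.1, 115 and 190 in unconditioned medium. Adipocyte and unconditioned samples overlapped, and all stromal samples were above both. Each mouse had a higher value in adipocyte than in unconditioned medium, and the log2 fold change of 0.34 did not pass the test (95% interval -0.51 to 1.19, adjusted p = 0.406). The authors' deposited clustering was of the same samples and selected genes, so it is not independent evidence that Cd14 differs. It put Cd14 in a cluster of 132 of the 2889 genes and the other 6 markers in a cluster of 1611. In the authors' deposited table for adipocyte medium the log2 fold changes of those 6 were between -4.01 (Lyz2) and -1.33 (Fcgr3), and Cd14 was at 1.99 in that for stromal medium.

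These directions are on the authors' scale, on which the median listed gene was at -1.03 in adipocyte against unconditioned medium. Rescaling by the median of ratios over the listed genes put that median at -0.11, by construction near 0. Relative to the median of all genes on the deposited scale, Lyz2 was at -3.01, Csf1r at -2.84, Adgre1 at -1.88, Spi1 at -0.50, Cybb at -0.43, Fcgr3 at -0.29 and Cd14 at 1.37. After rescaling 5 markers were lower, Cd14 was higher at 1.26 (adjusted p = 0.0119), and Fcgr3 at -0.40 no longer passed (adjusted p = 0.0753). On that scale 36.5% of all tested genes were lower and 37.6% higher.

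**Figure D2:**
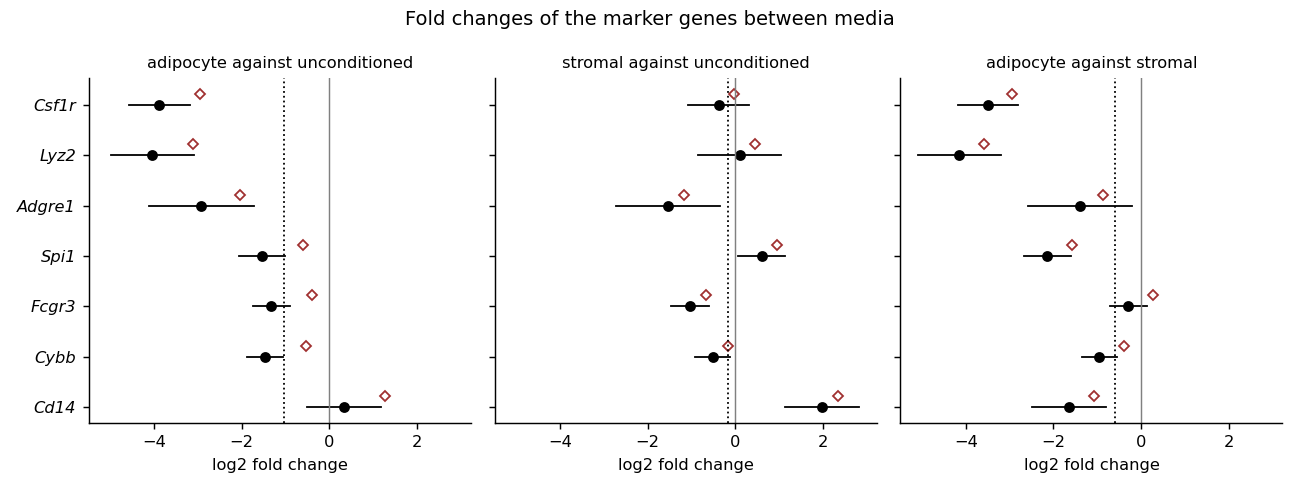
Log2 fold change of each listed marker gene (black points, with 95% limma intervals as lines) in 1 panel per comparison, with open diamonds for the values after rescaling and a dotted line at the median of all 2868 tested genes. In adipocyte against unconditioned medium Lyz2 and Csf1r lie near -4, and only the interval of Cd14 crosses 0.

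In stromal cell conditioned medium, set against unconditioned medium, the markers went separate ways. Adgre1, Fcgr3 and Cybb were lower, Cd14 was higher, and Csf1r, Lyz2 and Spi1 did not pass the test. On the same rule 57.7% of tested genes were called, 36.6% lower and 21.1% higher, and 44.2% were lower and 25.1% higher without overlap. For the markers those same counts were 3 lower and 1 higher under both rules. The markers' median log2 fold change was -0.38, against -0.17 over all genes tested.

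Cd14 rose in stromal against unconditioned medium by 1.99 on the log2 scale (SE 0.39, adjusted p = 0.00086), with 467%, 323% and 420% of the unconditioned level in mice 1, 2 and 3. Spi1 was at 0.60, with a 95% interval of 0.07 to 1.13 and an adjusted p of 0.0501, and at 139%, 198% and 127% of the unconditioned level. With the mouse as a block its adjusted p was 0.0146, and it passed also in edgeR (adjusted p = 0.0384) and DESeq2 (adjusted p = 0.0249) on recovered reads. With 1 sample or mouse left out in turn, Spi1 passed in 5 of 12 limma fits, with adjusted p from 0.0211 to 0.261. Lyz2 was at 0.11, with an interval of -0.84 to 1.05 (adjusted p = 0.849). Csf1r was at -0.38, with an interval of -1.07 to 0.31 (adjusted p = 0.325), although each mouse had less of it in stromal medium, at 74.6%, 73.0% and 83.1%.

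Adgre1 fell by 1.53 (SE 0.55, adjusted p = 0.0302), with 44.1%, 21.5% and 40.9% of the unconditioned level. Fcgr3 fell by 1.03 (SE 0.20, adjusted p = 0.000685) and was at 53.7%, 44.0% and 49.4%. Cybb fell by 0.52 (SE 0.19, adjusted p = 0.0318). Of these only Fcgr3 kept its call under every alternative: after rescaling Adgre1 was at -1.17 (adjusted p = 0.0879) and Cybb at -0.16 (adjusted p = 0.463). Both calls also ended without stromal replicate 1, stromal replicate 2, unconditioned replicate 3 or mouse 2, that of Adgre1 also without mouse 1 and that of Cybb without mouse 3, with adjusted p up to 0.138 and 0.153.

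Set directly against each other, adipocyte medium had less of 6 markers than stromal medium. In this comparison 91% of tested genes were called, 57.2% lower and 33.8% higher, and 56.2% were lower and 33.4% higher without overlap. The markers' median was -1.65, against -0.60 over all genes tested, and 5 markers were lower without overlap. Lyz2 was at -4.15 (SE 0.44, adjusted p = 2.08e-06), Csf1r at -3.50 (SE 0.32, adjusted p = 6.34e-07) and Spi1 at -2.14 (SE 0.24, adjusted p = 3.99e-06). Cd14 was at -1.65 (adjusted p = 0.0015), Adgre1 at -1.39 (adjusted p = 0.0283) and Cybb at -0.95 (adjusted p = 0.000381). Fcgr3, at -0.29 with an interval of -0.72 to 0.13, did not pass (adjusted p = 0.169). The call of Adgre1 ended without adipocyte replicate 2, stromal replicate 1, stromal replicate 3, mouse 1 or mouse 3, with adjusted p up to 0.141, and after rescaling, where Adgre1 was at -0.86 (adjusted p = 0.168) and Cybb at -0.38 (adjusted p = 0.063). Rescaling also put Fcgr3 above 0, at 0.27 (adjusted p = 0.204).

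Ratios of markers within a sample do not depend on the size factors. They are not per length, so they are compared between samples only. No ratio was computed for Adgre1. Its adipocyte sample held 19.0%, 8.95% and 10.7% of the unconditioned level in mice 1, 2 and 3, against 5.36%, 10.2% and 5.48% for Csf1r. The ratio of Lyz2 to Csf1r was 2.69, 2.48 and 4.75 in adipocyte medium, 4.08, 4.78 and 6.04 in stromal medium, and 2.90, 3.86 and 3.83 in unconditioned medium. These overlapped between adipocyte and unconditioned samples (exact permutation test over samples, not paired by mouse, two-sided p = 0.8). Between stromal and unconditioned samples they did not overlap (exact p = 0.1). The ratio of Spi1 to Csf1r was 2.54, 1.94 and 1.90 in adipocyte medium, 0.822, 1.08 and 0.601 in stromal medium, and 0.441, 0.398 and 0.393 in unconditioned medium, so the 3 media did not overlap. Cybb to Csf1r was 7.38, 4.43 and 5.82 in adipocyte, 1.32, 0.888 and 0.771 in stromal, and 1.19, 1.02 and 0.997 in unconditioned medium. Fcgr3 to Csf1r was 5.46, 2.08 and 2.16 in adipocyte, 0.361, 0.334 and 0.248 in stromal, and 0.502, 0.554 and 0.418 in unconditioned medium. Cd14 to Csf1r was 3.15, 1.36 and 4.18 in adipocyte, 0.782, 0.596 and 0.791 in stromal, and 0.125, 0.135 and 0.156 in unconditioned medium.

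For Spi1, Cybb, Fcgr3 and Cd14 the ratio to Csf1r was higher in all 3 adipocyte samples than in any unconditioned sample (exact p = 0.1 for each, the smallest that 3 against 3 can give). Csf1r was itself the 29th lowest of 2868 genes in that comparison, so the ratio rises for any gene that fell less than Csf1r. The share of all tested genes whose ratio to Csf1r separates in the same way was not computed. In stromal against unconditioned medium the ratios of Spi1 and Cd14 were higher and that of Fcgr3 was lower, also without overlap (exact p = 0.1 for each), and that of Cybb overlapped (exact p = 0.6). For this comparison too the share of all tested genes was not computed. Csf1r itself was at 74.6%, 73.0% and 83.1% of its unconditioned level in mice 1, 2 and 3, so a gene that kept its level has a higher ratio. Adjusted over the 12 tests on ratios, each exact p of 0.1 became 0.15, so none passed the threshold.

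**Figure D3:**
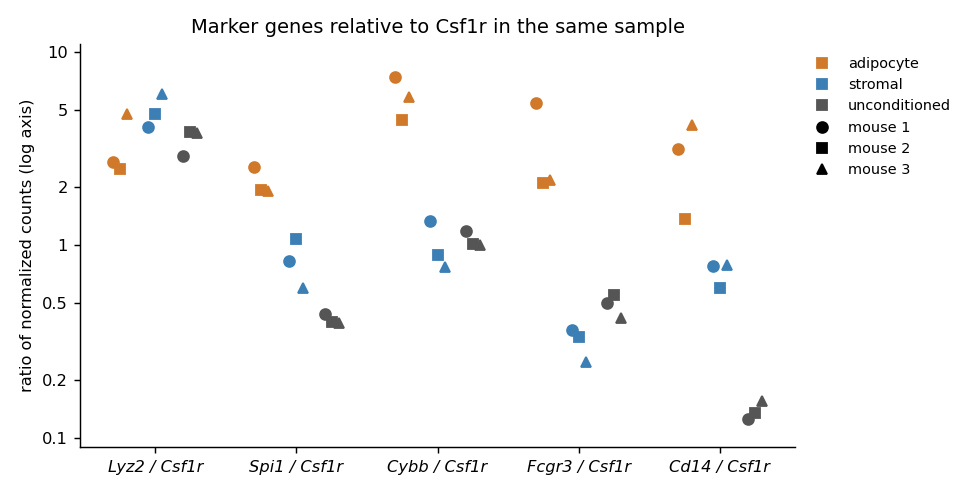
Ratio of the normalized counts of 5 marker genes to those of Csf1r in the same sample (log axis) for adipocyte, stromal and unconditioned samples, with the mouse shown by the symbol. The Lyz2 ratio overlaps between adipocyte and unconditioned medium, while the Spi1, Cybb, Fcgr3 and Cd14 ratios lie higher in all adipocyte samples. No ratio was computed for Adgre1.

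Samples from different mice differed in their levels of the marker transcripts. In unconditioned medium mouse 3 was the highest for all 7 markers, and it was highest for 36.7% of all tested genes. Mouse 1 was the lowest for 6 of 7, and for 42.6% of all tested genes. In stromal medium mouse 3 was highest for 6 of 7 markers (33.3% of all tested genes), and in adipocyte medium for 4 of 7 (32.0%). The highest mouse stood above the lowest by 1.45-fold (Fcgr3) to 2.33-fold (Adgre1) in unconditioned medium and by up to 4.42-fold (Adgre1) in stromal medium. No test was made of this pattern.

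By the root mean square difference of centred log2 profiles over the 9 samples, the genes most like Csf1r among 2121 candidates were Rassf4 (0.30), Lyz2 (0.40), Sgsh (0.49), Cby1 (0.54), BC147527 (0.57) and Mrm2 (0.62). Rassf4, a Ras association domain gene, had a Pearson r of 0.99 with Csf1r, and Sgsh, a lysosomal sulfatase gene, 0.97. The genes most like Lyz2 were Csf1r (0.40), Rassf4 (0.54), F13a1 (0.67), Sgsh (0.83), Slc25a10 (0.85) and Cby1 (0.86). F13a1, which encodes the A chain of coagulation factor XIII and is a monocyte gene, was at 36.0, 27.9 and 97.7 in adipocyte, 255, 351 and 745 in stromal and 247, 336 and 404 normalized counts in unconditioned medium. The 9 points share size factors and 3 mice, so these r values are descriptions.

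The 9 lists of myeloid genes hold 143 symbols, 133 of them other than the 10 markers, and 51 of the 133 were tested. In adipocyte against unconditioned medium 42 of the 51 were lower (82.4%, against 63.4% of all tested genes), 8 were higher (15.7% against 33.8%) and 1 did not pass. Their median was -1.75, against -1.03 over all genes. After rescaling 27 were lower, 9 were higher and 15 did not pass, where 36.5% of all tested genes were lower and 37.6% higher, and the median was -0.84 against -0.11. In stromal against unconditioned medium 9 were lower (17.6%, against 36.6% of all tested genes), 8 were higher (15.7% against 21.1%) and 34 did not pass. The median was -0.04 against -0.17. Rescaling turned this to 5 lower and 15 higher, with 19.6% of all tested genes lower and 39.4% higher, and a median of 0.32 against 0.19. In adipocyte against stromal medium 41 were lower (80.4%, against 57.2% of all tested genes) and 7 higher (13.7% against 33.8%), with a median of -1.60 against -0.60. The lists hold genes that T cells use too, such as the oxidase GTPase gene Rac2, so their members are not all marks of myeloid cells.

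**Figure D4:**
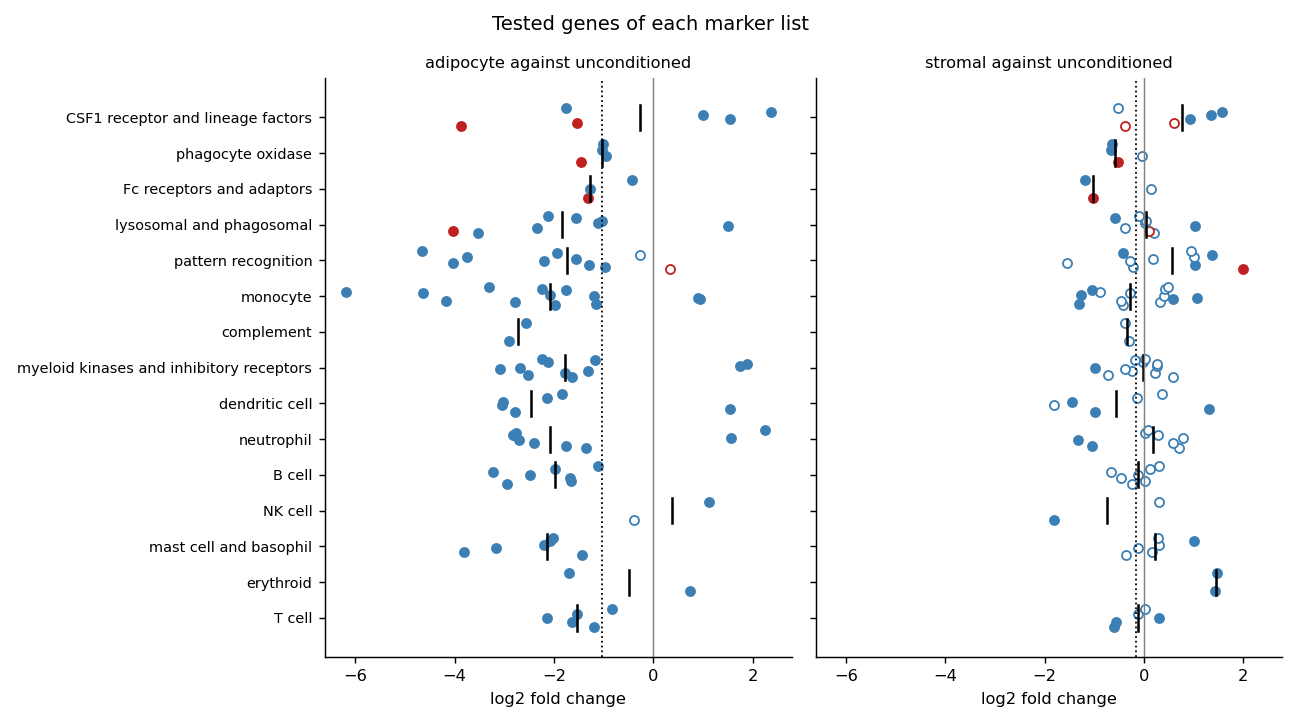
Log2 fold changes in adipocyte against unconditioned and stromal against unconditioned medium for tested genes of the myeloid lists and of the lists for other cells, 1 point per gene, filled where it passed the threshold and red for the marker genes themselves, with the list median as a bar and the median of all tested genes as a dotted line; lists with fewer than 2 tested genes are left out. Monocyte, complement, dendritic, neutrophil, B cell and mast cell medians lie at or below -1.98 in adipocyte medium.

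The lists that surround the markers were as follows, with counts that include the markers. Of all tested genes 63.4% were lower and 33.8% higher in adipocyte medium, and 36.6% lower and 21.1% higher in stromal medium. Of 17 genes for the CSF1 receptor and lineage factors 6 were tested, and in adipocyte medium 3 were lower and 3 higher. Klf4 and Cebpb, transcription factor genes of monocyte differentiation, rose by 2.36 and 1.54, while Nr1h3, encoding the sterol receptor LXR alpha, fell by 1.76. Klf4 and Cebpb also rose in stromal medium, by 1.58 and 0.93. Irf8 rose by 1.00 in adipocyte and by 1.36 in stromal medium. All 4 tested oxidase genes of 7 were lower in adipocyte medium, with Ncf1 at -1.03, Rac2 at -1.02 and Cyba at -0.95, beside Cybb. Rescaling left only 1 of these 4 lower, and the median of the 4 was then -0.10, against -0.11 over all genes.

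Of 7 Fc receptor and adaptor genes 3 were tested and all were lower, among them the signalling adaptor gene Tyrobp at -1.27. The adaptor gene Hcst was at -0.43 and turned to 0.49 after rescaling. Of 24 lysosomal genes 8 were tested, 7 were lower and 1 was higher, with the protease gene Ctsh at -2.34 and the glucuronidase gene Gusb at -2.12 beside the lysozymes. In stromal medium 1 of these 8 was lower, 1 was higher and 6 did not pass.

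Of 21 pattern recognition genes 10 were tested, and 8 were lower in adipocyte medium, with 0 higher. Msr1, a macrophage scavenger receptor gene, was at 0, 0 and 10.7 normalized counts in adipocyte medium, at 65.9, 115 and 168 in stromal medium, and at 50.0, 39.1 and 89.5 in unconditioned medium. Its log2 fold change in adipocyte against unconditioned medium was -4.65 (SE 0.81, adjusted p = 0.000106). The fungal lectin receptor gene Clec4n was at -3.75 and the nucleic acid sensor gene Tlr13 at -2.21, both past the threshold. Tlr8, a sensor of single-stranded RNA, had 0 reads in all 3 adipocyte samples, against 55 reads in unconditioned samples, and was at least 17.4-fold lower, taking 3 reads over the group as the floor. In stromal medium 3 of the 10 were higher, Cd14 among them, and 1 was lower.

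Of 23 monocyte genes 13 were tested, and 11 were lower and 2 higher in adipocyte medium. Ms4a6c and Plac8 were those that rose, by 0.94 and 0.90. Clec4a3, a lectin receptor gene of monocytes, had 1 read over the 3 adipocyte samples, against 170 in stromal and 267 in unconditioned samples. Its relative Clec4a1 had 5, against 157 and 180. Ace, which marks patrolling monocytes, had 0 reads, against 60 in stromal and 51 in unconditioned samples, and was at least 16.2-fold lower than in unconditioned medium. Chil3, a chitinase-like gene of monocytes and alveolar macrophages, fell by 3.30. In stromal medium 3 of the 13 were lower and 2 higher, and none of Clec4a3, Clec4a1, Ace and Chil3 passed. With Tlr8 and Ace set at their bounds, the medians of their lists do not move.

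The splenic macrophage list of 16 genes had only Adgre1 in the table. Both complement genes tested, of 9, were lower, the anaphylatoxin receptor gene C5ar1 at -2.90 and C3 at -2.56. Of 19 genes for myeloid kinases and inhibitory receptors 11 were tested, with 9 lower and 2 higher in adipocyte medium. Lilr4b and Lilrb4a were those that rose, by 1.88 and 1.74. Sirpa, the receptor for the signal CD47 that restrains engulfment, was at 34.5, 33.3 and 56.7 in adipocyte, 203, 269 and 344 in stromal and 296, 329 and 432 in unconditioned medium. It fell by 3.08 in adipocyte against unconditioned medium (SE 0.26, adjusted p = 2.24e-07). Pirb, an inhibitory receptor gene, was at -2.68, the kinase gene Fgr at -2.52 and the lectin gene Clec12a at -2.24, all past the threshold.

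Markers of other cells moved with adipocyte medium as well, where 63.4% of all tested genes were lower and 33.8% higher. All 7 tested B cell markers of 20 were lower (median -1.98), and their summed level was 3064 to 3968 in adipocyte, 8168 to 12615 in stromal and 7745 to 10111 in unconditioned medium. Cd74 alone had means of 2993, 8045 and 6499 in that order, and so makes up most of these sums. It fell least of the 7, by 1.12. Fcrla, Cd79b and Fcer2a were at -3.22, -2.49 and -1.98, and in stromal medium 0 of the 7 passed. All 6 tested mast cell and basophil markers of 7 were lower (median -2.13), with sums of 1677 to 2708 in adipocyte, 4370 to 5972 in stromal and 5460 to 6169 in unconditioned medium. Most of these sums is Kit, with means of 1827, 3764 and 4853, which fell least of the 6, by 1.43. Ms4a2, Mcpt8 and Gata2 were at -3.16, -2.19 and -2.07, and the receptor gene Fcer1a had 3 reads in adipocyte samples, against 85 in stromal and 73 in unconditioned samples.

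Of 16 neutrophil markers 8 were tested, 6 lower and 2 higher (median -2.08), with sums of 2332 to 2389 in adipocyte, 2244 to 3671 in stromal and 2260 to 3165 in unconditioned medium. The granule genes Elane and Mpo were at -2.83 and -2.77, Mmp9 at -2.70 and the chemokine receptor gene Cxcr2 at -2.41. The 2 that rose were the decoy interleukin 1 receptor gene Il1r2, by 2.25, and the granule gene Ngp, by 1.57. Il1r2 alone was at 2078, 1305 and 1614 normalized counts in adipocyte medium, against 357, 371 and 308 in unconditioned medium, and so makes up most of the adipocyte sum. Of 17 dendritic cell markers 6 were tested, 5 lower and 1 higher (median -2.46), with sums of 494 to 590 in adipocyte, 881 to 1117 in stromal and 821 to 1043 in unconditioned medium. Cd209a, Flt3 and Siglech were at -3.03, -2.78 and -2.14, and Clec9a had 5 reads in adipocyte, 38 in stromal and 66 in unconditioned samples. The dendritic cell marker that rose was Xcr1, by 1.54.

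All 5 tested T cell markers were lower too (median -1.54), against 63.4% of all tested genes. Cd8a was at -2.14, Cd3g at -1.64, Cd8b1 at -1.54 and Cd3e at -1.19. Of 11 natural killer markers 2 were tested, and Klre1 rose by 1.12. Prf1 was at -0.38, or 0.55 after rescaling, and passed on neither scale (limma adjusted p = 0.181 and 0.097). The sums of these 2 markers were 1296 to 2750 in adipocyte, 756 to 890 in stromal and 2004 to 2090 in unconditioned medium. Of 11 erythroid markers 2 were tested, Gata1 up by 0.74 and Car1 at -1.70, with sums of 532 to 654 in adipocyte, 1217 to 2659 in stromal and 460 to 759 in unconditioned medium. The platelet list of 7 had only the integrin gene Itgb3, which rose by 1.10, and 0 of 8 plasma cell markers were in the table. No tested marker of these other cells was at 0 in every sample of a medium. After rescaling 4 of the B cell, 6 of the mast cell and basophil, 4 of the neutrophil, 4 of the dendritic cell and 4 of the T cell markers were still lower in adipocyte medium. On that scale 36.5% of all tested genes were lower and 37.6% higher. The fifth T cell marker, Bcl11b, was then at 0.09, against -0.83 before rescaling. In stromal against unconditioned medium 1 mast cell marker was higher, 2 neutrophil markers were lower, 2 dendritic cell markers were lower and 1 higher, and 2 T cell markers were lower and 1 higher. There the natural killer marker Prf1 was lower, at -1.81, and Gata1, Car1 and Itgb3 were higher, at 1.44, 1.47 and 1.25. Of all tested genes 36.6% were lower and 21.1% higher in that comparison. The part of these other cells in the marker results was not tested.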

How the data were processed

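Poly(A)-primed SMART-seq v4 cDNA and Nextera XT libraries, which keep no strand, were sequenced, per the labels' protocols. FastQC, Trimmomatic, featureCounts and DESeq2, and the builds GRCm39, GRCh38 and hg38, are named without roles or versions, per the submitters' processing notes. No source used here gives the aligner, annotation or strand setting. The authors deposited a normalized signal per gene (read counts over a size factor), a cluster number and 2 tables of log2 fold changes with standard errors, Wald scores and p-values. The 9 columns hold whole multiples of 1 read for 100% of values, within 0.01 reads.

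The normalized values were tested by limma-trend (limma 3.58.1, R 4.3.3) on log2(value + 1), for genes with a mean of at least 1, with the medium as the only factor and all 9 samples in 1 fit. This fold change understates the change of low genes. Benjamini-Hochberg adjustment ran over 2868 genes, and 21 were not tested. On recovered reads, edgeR 4.0.16 and DESeq2 1.42.0 were alternatives, with other pseudocounts (0.5 and 8), a mean of at least 10, no filter, rescaling and left-out samples. The limma fit was tested on simulated data in which most genes did not change, unlike the listed genes here.

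Same-numbered samples come from the same mouse, per the labels. Their deviations from the group means correlated at -0.12 to 0.26 (median 0.13, 9 pairs), against -0.20 to 0.14 (median -0.07, 18 pairs) for different mice.

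The markers and the 18 gene lists were chosen with earlier results of these data known. Named were all listed markers, the 6 genes most like Csf1r and Lyz2 outside the lowest 25% of means, and up to 4 genes per list with the largest adipocyte change. Rac2 as an example of T cell use and the per-sample values of Msr1, Sirpa and F13a1 were chosen after their values were seen. So were Il1r2, Ngp, Xcr1, Irf8, Ctsl, Ms4a6c, Plac8, Lilr4b and Lilrb4a, named because they rose. Some genes that this rule names are not reported here.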

Additional observations from a re-analysis of the deposited data

How the results depend on the processing

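Under 21 alternatives, 400 of 441 log2 fold changes of the markers kept their direction and their side of the threshold, and 124 of 126 counts of called genes or markers stayed within 1.5 times, though their split by direction could move. Rescaling by the median of ratios moved Fcgr3 to -0.40 and Cd14 to 1.26 in adipocyte against unconditioned medium, Adgre1 to -1.17, Spi1 to 0.96 and Cybb to -0.16 in stromal against unconditioned medium, and Adgre1 to -0.86, Cybb to -0.38 and Fcgr3 to 0.27 in adipocyte against stromal medium. TMM scaling put Cybb at -0.39 in stromal against unconditioned medium, and Adgre1 at -1.25 and Fcgr3 at 0.0143 in adipocyte against stromal medium. Spi1 in stromal against unconditioned medium passed with a pseudocount of 8 (0.59), a mean of at least 10 (0.60), edgeR (0.60), TMM (0.74) and DESeq2 (0.60). With the replicate block (the mouse) it was at 0.60 and passed, and the block changed no other marker's call. The cause of these changes was not tested.

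Leaving out 1 sample or mouse in turn gave -0.0700 to 0.645 for Cd14 in adipocyte against unconditioned medium (below 0 without adipocyte replicate 3), and -1.92 to -0.88 for Adgre1 in adipocyte against stromal medium. In stromal against unconditioned medium it gave -2.04 to -0.999 for Adgre1, -0.64 to -0.34 for Cybb, 0.41 to 0.79 for Spi1, and -0.32 to 0.44 for Lyz2. Lyz2 was at -0.32 without stromal replicate 3, -0.21 without unconditioned replicate 1 and -0.04 without mouse 3. The number of markers past the threshold there ran between 2 and 5, with 2 without stromal replicate 2 or mouse 2. With 1 sample of a group left out the fit pools the spread of the others.

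Rescaling split the called genes into 1047 lower and 1078 higher, against 1818 and 969, in adipocyte against unconditioned medium, into 561 and 1129, against 1049 and 606, in stromal against unconditioned medium, and into 1090 and 1172, against 1641 and 968, in adipocyte against stromal medium. The called markers in stromal against unconditioned medium were then 1 lower and 2 higher, against 3 and 1. TMM gave 826 lower and 805 higher in stromal against unconditioned medium. On recovered reads edgeR called 2784, 1685 and 2611 genes in these 3 comparisons and DESeq2 2786, 1721 and 2606, against 2787, 1655 and 2609. Whole library depth is unknown. Adgre1, with 7 to 18 reads in adipocyte samples, had the largest standard error of the 7 markers (0.55).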
